A study of Mus musculus with 6 samples.

Results

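Sialyltransferases are the Golgi enzymes that cap the sugar chains of glycoproteins and glycolipids with sialic acid. The 10 genes described here were chosen by name, as the rows of the deposited count matrix that map to St3gal1 to St3gal6, St6gal1, St6galnac2, St6galnac4 and St6galnac6, out of 55414 gene identifiers in the matrix. All 10 were present, and all 10 passed the filter on low counts. The libraries came from the mouse line AY-mICC, studied as a model of cancer arising from intrahepatic bile ducts. Cells were grown in DMEM with 10% fetal bovine serum, and the labels list no treatment. The labels give 3 libraries of genotype control (shCon) and 3 of genotype Copa knockdown (shCopa), where the prefix sh is the usual mark of knockdown by RNA hairpins. The Copa protein is a subunit of COPI, a coat on vesicles that carry cargo backwards through the Golgi and from the Golgi to the endoplasmic reticulum. The hairpin sequence and the number of hairpins were not given in the sources used here. The labels do not say whether each replicate is its own culture. The p-values therefore cover only the spread among these libraries, which may be technical. All libraries are of a single line, and all comparisons are of shCopa with shCon.

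Each sialyltransferase takes sialic acid from the activated donor CMP-sialic acid and attaches it in a set linkage to a set kind of chain end. The St3gal enzymes and St6gal1 act on terminal galactose, and the St6galnac enzymes act on N-acetylgalactosamine. The resulting ends are ligands of Siglec receptors on immune cells and of selectins, and they mask galactose from lectins. The enzymes stay in the Golgi while cargo passes, and COPI vesicles are one of the routes by which Golgi enzymes are returned between cisternae. The RNA measured here reports transcript levels only, not enzyme position or activity.

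Library totals were 19634938 to 24546204 estimated counts, of which the 10 genes took 14407 to 21725. Copa itself stood at 420 to 527 CPM (counts scaled to library size with TMM factors) in shCon against 182 to 187 CPM in shCopa, in the direction the labels state (log2 fold change -1.40 ± 0.11 (SE)). The library shCon 1 stood apart from shCon 2 and 3 over all tested genes, with Pearson's r of 0.9792 and 0.9776 across genes against 0.9946 for shCon 2 with shCon 3. Among markers of bile duct cells, Krt7, Krt19, Sox9 and Spp1 were present in every library, with a lowest value of 132 CPM for Sox9 in shCopa 3, while the epithelial adhesion gene Epcam had only 4 to 17 counts in a library. Krt7 fell to 36.9% of control (log2 fold change -1.44) and Spp1, which encodes osteopontin, to 66.5%, while Cftr rose 1.58-fold and Krt19 and Sox9 did not pass. The summed level of the 7 bile duct markers was 7632 to 10110 CPM in shCon and 5389 to 5862 CPM in shCopa, most of it Spp1. Of 8 markers of immune cells, Cd3e, Cd8a and Adgre1 had at most 2 counts in a library, and Ptprc had 0 or 1 counts in shCon and 21 to 25 in shCopa. Lyz2, a lysozyme gene of myeloid cells, also rose, from 28 to 39 counts in shCon to 167 to 185 in shCopa. The summed level of the 8 was 157 to 195 CPM in shCon and 111 to 114 CPM in shCopa, most of it Csf1r, which fell to 53.2% of control. Summed markers of hepatocytes were 10.8 to 15.3 CPM in shCon and 30.6 to 32.5 CPM in shCopa, most of it Alb, which rose 2.29-fold. Hnf4a rose 2.99-fold, while Ttr was lower and did not pass (log2 fold change -0.40). Apoa1 had 0 or 1 counts in shCon and 5 to 9 in shCopa, and Cyp2e1, Cps1 and Serpina1c had at most 6 in a library. Summed markers of stromal and endothelial cells were 184 to 223 CPM in shCon and 170 to 185 CPM in shCopa, most of it Dcn, which did not pass. Within that list, the endothelial receptor gene Kdr rose from 1 to 3 counts in shCon to 26 to 52 in shCopa, and Pdgfrb fell to 31.6% of control. The part of all these markers in the results below was not tested. In bulk RNA, fewer cells of a type and less RNA per cell cannot be told apart.

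Promoter sequence is shown for 3 members that fell, St3gal4, St3gal5 and St6galnac4, so that their upstream letters can be compared, and for St3gal3 and St6gal1, which did not pass the test. The table is on build GRCm38.p6, whereas the counts were made on GRCm39, so these coordinates belong to the sequence alone. Each run covers 230 bases that end 20 bases before the annotated start, 5′ to 3′ on the strand of the gene, and capitals mark GC boxes, matches to GGGCGG on either strand.
St3gal4 (chr9:35116885-35117114, minus strand): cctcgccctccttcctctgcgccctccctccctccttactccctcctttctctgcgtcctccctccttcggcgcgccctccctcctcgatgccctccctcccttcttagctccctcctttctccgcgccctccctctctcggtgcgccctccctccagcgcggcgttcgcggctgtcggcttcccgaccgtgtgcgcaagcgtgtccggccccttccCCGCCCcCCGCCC
St3gal5 (chr6:72097358-72097587, plus strand): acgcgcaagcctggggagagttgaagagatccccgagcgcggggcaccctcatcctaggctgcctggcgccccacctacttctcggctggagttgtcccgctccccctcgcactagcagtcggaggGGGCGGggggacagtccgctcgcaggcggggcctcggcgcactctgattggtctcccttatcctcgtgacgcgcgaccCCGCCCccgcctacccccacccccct
St6galnac4 (chr2:32586828-32587057, plus strand): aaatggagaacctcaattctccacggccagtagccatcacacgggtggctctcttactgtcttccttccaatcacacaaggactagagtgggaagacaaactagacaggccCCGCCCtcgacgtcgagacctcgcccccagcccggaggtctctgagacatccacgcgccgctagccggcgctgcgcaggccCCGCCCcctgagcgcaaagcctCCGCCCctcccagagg
St3gal3 (chr4:118134967-118135196, minus strand): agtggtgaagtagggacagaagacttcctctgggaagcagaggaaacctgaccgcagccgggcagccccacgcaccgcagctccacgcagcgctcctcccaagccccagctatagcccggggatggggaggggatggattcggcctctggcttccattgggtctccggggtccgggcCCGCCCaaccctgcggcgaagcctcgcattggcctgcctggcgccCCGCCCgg
St6gal1 (chr16:23224490-23224719, plus strand): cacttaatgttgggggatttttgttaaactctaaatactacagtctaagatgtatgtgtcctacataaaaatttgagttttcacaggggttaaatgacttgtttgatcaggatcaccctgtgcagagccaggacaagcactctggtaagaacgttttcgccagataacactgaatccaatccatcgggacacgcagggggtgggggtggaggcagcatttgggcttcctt

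The table held 10 windows for 7 of the 10 members: 1 each for the genes above other than St6gal1 and for St6galnac6, 3 for St6gal1 and 2 for St3gal6. St3gal4, St3gal5 and St3gal3 had 2 GC boxes each and St6galnac4 had 3, against a match in 29.8% of all 32851 windows of the same length. The 3 St6gal1 windows and the St6galnac6 window had none, and the St3gal6 windows had 0 and 4. The St3gal6 window with 4 overlaps an annotated exon of St3gal6 itself. GC content was 71.7% in the St3gal4 window, 70.9% in St3gal5, 63.5% in St6galnac4 and 69.1% in St3gal3, against a median of 51.7% over all windows. It was 44.8% in the St6gal1 window shown and 53.5% and 50.4% in the other St6gal1 windows. The window of St6galnac6, which fell, had 51.3%, and those of St3gal6 had 36.09% and 64.35%. GC boxes therefore occurred both before members that fell and before the St3gal3 gene, which did not pass. No window of a member held the TATA box TATAAA (11.8% of all windows), the E-box CACGTG (5.35%) or ACGTGGC, the Golgi stress response element known as GASE (1.82%); the last 2 motifs share letters and can overlap. CCAAT was found in 7 of the 10 windows, against 32.2% of all, but the 3 windows of the single gene St6gal1 are among the 7. The St3gal4 window also overlaps an annotated exon of 4930581F22Rik, a noncoding gene on the opposite strand.

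The question put to these transcripts was whether their levels differ when Copa is lowered. Of the 10 sialyltransferases, 5 fell, 0 rose and 5 did not pass (edgeR quasi-likelihood test, Benjamini-Hochberg adjusted over 14807 genes, threshold 0.05). Over all tested genes, 18.4% fell and 18.2% rose, 36.5% in either direction. By at least 2-fold, 3 of the 10 fell, against 6.31% of all genes. The median log2 fold change was -0.48 for the 10 genes and -0.01 for all tested genes. At an unadjusted p under 0.05, 1 of the 10 was higher in shCopa and 6 were lower. The share of all genes at that cutoff is not given here. DESeq2 called 1 as risen (15.9% of all genes) and 5 as fallen (16.1%). With limma-voom, 0 rose (18.7%) and 5 fell (17.9%). In 6 of the 10 every shCopa library was below every shCon library, against 26.9% of all genes, and in 2 every shCopa library was above, against 27.2%. Without shCon 1, 6 of the 10 fell and 1 rose, against 27% and 28.3% of all genes, with a median of -0.34.

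**Figure D1:**
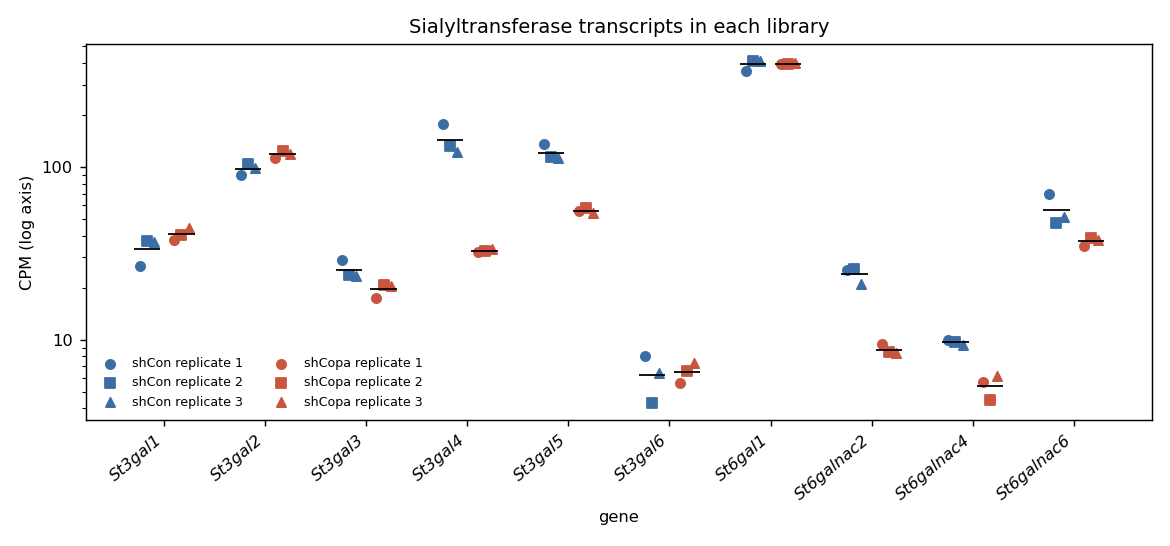
CPM of each sialyltransferase gene in each of the 6 libraries on a log axis, with shCon in blue and shCopa in red, 1 marker shape for each replicate number and a black line at the group mean (n = 3). St3gal4 stands at 123 to 178 CPM in shCon against 32.4 to 33.3 CPM in shCopa, while St6gal1 stands at 360 to 411 and 395 to 398 CPM.

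**Figure D2:**
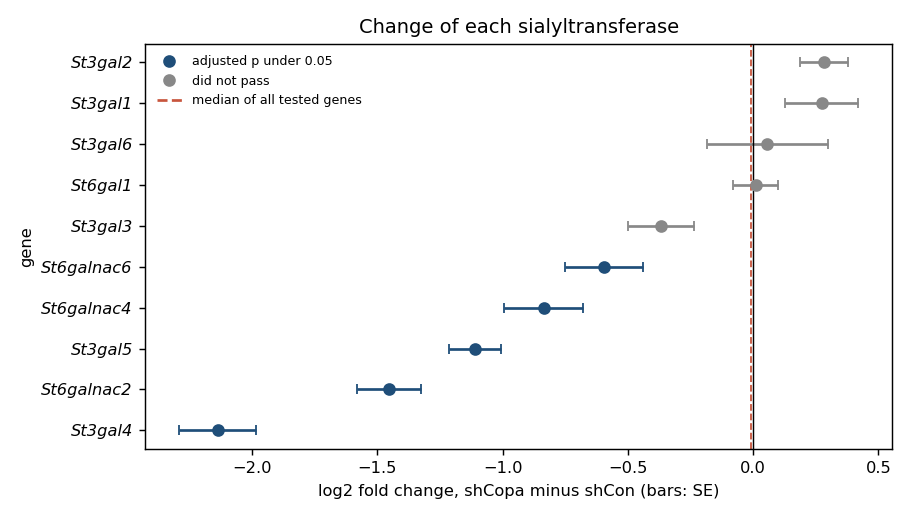
Log2 fold change (shCopa minus shCon) of each gene with its SE; blue points passed an adjusted p under 0.05, grey points did not, and the dashed line is the median of all tested genes. St3gal4 lies furthest from 0 at -2.14, and St3gal2 is the highest at 0.28.

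St3gal4, St3gal3 and St3gal6 attach sialic acid to the galactose of N-acetyllactosamine, the end common on N-glycans and on selectin ligands. St3gal4 was at 178, 132 and 123 CPM in shCon 1, 2 and 3 against 32.4, 32.6 and 33.3 CPM in shCopa 1, 2 and 3. The groups were far apart, and shCon 1 was the highest library. The mean fell from 144 ± 30.0 to 32.8 ± 0.480 CPM (SD, n = 3 per group), with a fitted log2 fold change of -2.14 ± 0.15 (SE; adjusted p = 0.000114), which left 22.7% of the control level. In absolute size this change exceeded that of 96.3% of all tested genes. The overlapping noncoding gene 4930581F22Rik on the opposite strand had 51 to 93 counts in a library, against 659 to 3841 for St3gal4, and did not pass.

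St3gal3 showed a smaller difference that did not pass. It was at 28.9, 23.7 and 23.3 CPM in shCon against 17.4, 20.8 and 20.6 CPM in shCopa. All shCopa libraries lay below all shCon libraries, yet the log2 fold change of -0.37 ± 0.13 had an adjusted p of 0.0629, and its 95% interval ran from -0.67 to -0.06. Without shCon 1 it passed (-0.26, adjusted p = 0.0286), and with offsets for transcript length and GC content it was -0.15. St3gal6 had few reads, with 100 to 173 counts in a library. It was at 8.04, 4.29 and 6.41 CPM in shCon and 5.62, 6.57 and 7.28 CPM in shCopa, and the groups overlapped. Its log2 fold change of 0.06 ± 0.24 had a 95% interval from -0.51 to 0.62, and its sign turned without shCon 2 (-0.16) or shCopa 3 (-0.033) and with the offsets (-0.081). Dcbld2, a coding gene that overlaps St3gal6 on the opposite strand, had 3571 to 7735 counts and changed by 0.72 on the log2 scale. The strand setting of the counting is not given in the sources used here, so reads of the pair cannot be told apart with certainty.

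St3gal1 and St3gal2 act on the core 1 disaccharide of mucin-type O-glycans, and St3gal2 also on gangliosides. St3gal1 was at 26.8, 37.2 and 37.0 CPM in shCon against 37.6, 40.4 and 44.2 CPM in shCopa. The groups did not overlap, but shCon 2 and 3 lay close to shCopa 1, and shCon 1 was well below them. The log2 fold change of 0.27 ± 0.15 did not pass (adjusted p = 0.186; 95% interval from -0.07 to 0.62) and was 0.13 without shCon 1. St3gal2 was at 89.4, 104 and 98.5 CPM in shCon against 112, 124 and 118 CPM in shCopa. All 3 shCopa libraries were above all 3 shCon libraries. The log2 fold change of 0.28 ± 0.10 lay just outside the threshold (adjusted p = 0.0528), with a 95% interval from 0.06 to 0.50. It passed without shCon 1 (0.22, adjusted p = 0.00506), with DESeq2 (adjusted p = 0.0489), with upper-quartile factors (0.0384), with a filter of 1 CPM in 3 libraries (0.0456) and with the length and GC offsets (0.00122). The shares of all genes that rose in those fits were 28.3%, 15.9%, 19.5%, 18.8% and 24.8%. The adjusted p over all 16 alternatives ranged from 0.00122 to 0.194.

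St3gal5 is GM3 synthase, the enzyme that sialylates lactosylceramide and so opens the ganglioside pathway. It was at 136, 114 and 112 CPM in shCon against 55.4, 58.2 and 54.2 CPM in shCopa, with a wide gap between the groups. The mean fell from 121 ± 13.2 to 55.9 ± 2.08 CPM, to 46.3% of control (log2 fold change -1.11 ± 0.10, adjusted p = 0.000288). The noncoding genes that overlap it, Gm29438 and 4933431G14Rik, had at most 24 counts in a library.

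St6gal1 adds sialic acid in the alpha-2,6 linkage to N-glycans and differed little between the groups. It was at 360, 410 and 411 CPM in shCon against 395, 396 and 398 CPM in shCopa. The shCopa libraries lay inside the range of shCon. The log2 fold change was 0.01 ± 0.09 (adjusted p = 0.938), and its 95% interval, from -0.20 to 0.22, corresponds to 0.871 to 1.17 of the control level. The sign turned without shCon 1 (-0.054), with offsets for length and GC (-0.0071) and with no filter on low counts (-0.019). The overlapping gene BC106179 on the opposite strand had 146 to 260 counts, against 7745 to 10004 for St6gal1.

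The 3 St6galnac genes with enough counts to be tested fell, where 18.4% of all genes did, and St6galnac1, St6galnac3 and St6galnac5 had at most 7 counts in a library. St6galnac2, which sialylates the N-acetylgalactosamine at the base of O-glycans, was at 25.3, 25.8 and 21.0 CPM in shCon against 9.43, 8.47 and 8.40 CPM in shCopa. It fell to 36.5% of control (log2 fold change -1.45 ± 0.13, adjusted p = 0.000217). A second identifier with this symbol, ENSMUSG00000110170, overlaps the first, so reads may be divided between them. It had 22.8, 41.8 and 50.4 estimated counts in shCon and 20.3, 8.91 and 7.88 in shCopa, and with both summed the log2 fold change was -1.46. 1810032O08Rik, which overlaps St6galnac2 on the opposite strand, moved the other way (log2 fold change 0.69), with 115 to 199 counts.

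St6galnac4 adds a further sialic acid to core 1 chains that already carry one. It was at 9.99, 9.66 and 9.33 CPM in shCon against 5.67, 4.45 and 6.12 CPM in shCopa, from 103 to 227 counts in a library. The shCon libraries were tightly grouped and all above shCopa, and the gene fell to 56.0% of control (-0.84 ± 0.16, adjusted p = 0.00556). St6galnac6, which makes disialylated gangliosides, was at 70.1, 47.2 and 51.2 CPM in shCon against 34.9, 38.7 and 37.9 CPM in shCopa. The groups did not overlap, and shCon 1 lay well above the rest. It fell to 66.2% of control (-0.60 ± 0.16, adjusted p = 0.0212). This call did not survive leaving out any 1 shCopa library (adjusted p = 0.0876, 0.0660 and 0.0738 without shCopa 1, 2 and 3), and 4 of the 10 then fell, against 11.8%, 11.6% and 11.6% of all genes. Without shCon 1 St6galnac6 passed at -0.41. St6galnac4 and St6galnac6 are adjacent on the same strand, and the St6galnac6 promoter window overlaps an annotated exon of St6galnac4. Ak1, the next gene on that strand, also changed (-0.45).

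For a comparison of levels between genes, CPM were divided by the length in kb of the longest coding transcript. In shCon, St6gal1 was highest at 87.4 ± 6.53 CPM per kb (SD, n = 3), followed by St3gal4 at 68.8 ± 14.3 and St3gal5 at 49.5 ± 5.42. The ranges of the first 2 overlapped. St6galnac6 and St3gal2, at 22.2 ± 4.83 and 22.1 ± 1.69 CPM per kb, overlapped as well, and St3gal3, St6galnac2 and St3gal1 followed at 9.93, 6.60 and 5.87, the last pair with overlapping libraries. St6galnac4 and St3gal6 were lowest, at 2.66 and 1.52 CPM per kb. In shCopa, St6gal1 stood alone at 88.0 ± 0.357 CPM per kb. The next were St3gal2 at 26.9 ± 1.38, St3gal5 at 22.9 ± 0.851, St3gal4 at 15.7 ± 0.229 and St6galnac6 at 14.7 ± 0.793 CPM per kb, and the libraries of these 4 genes did not overlap with those of their neighbours in this order. St3gal3 and St3gal1 overlapped, and so did St3gal6 and St6galnac4. The order depends on the transcript chosen. With the median length of a gene's coding transcripts, St3gal4 came first in shCon and St6gal1 next, and in shCopa St6gal1 came first and St3gal4 next. That median was 587 bases for St3gal4, whose longest transcript has 2095, and 494 for St3gal6, whose longest has 4123. For St6gal1 the 2 lengths were 3233 and 4506 bases. Short annotated transcripts thus raise the levels of St3gal4 and St3gal6 under the median length.

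**Figure D3:**
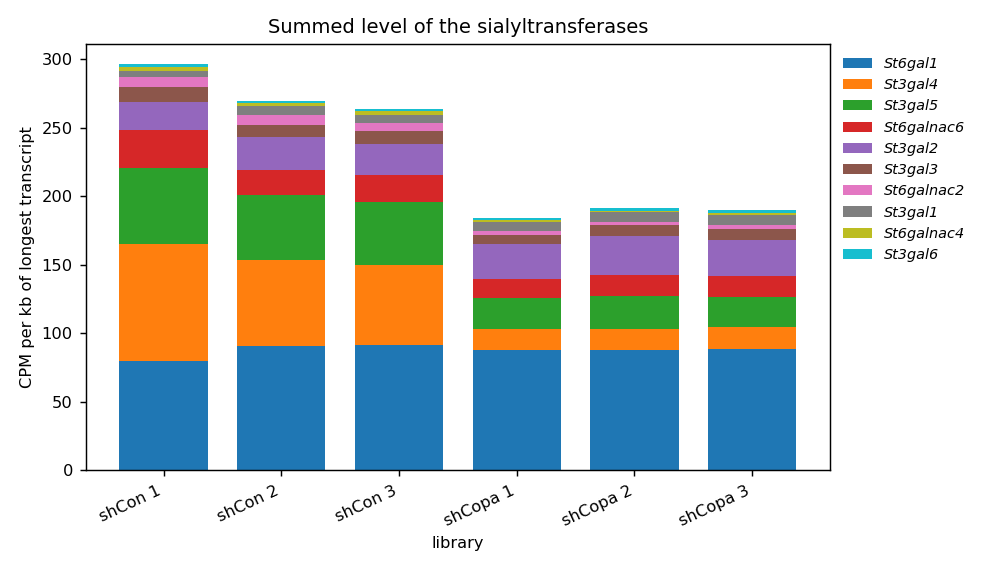
CPM per kb of longest transcript, stacked over the 10 genes, for each of the 6 libraries. The stack is 264 to 296 high in shCon and 184 to 191 high in shCopa, and the St6gal1 block at the base differs little while the St3gal4 and St3gal5 blocks shrink.

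Summed over the 10 genes, the level was 296, 270 and 264 CPM per kb in shCon 1 to 3 and 184, 191 and 190 in shCopa 1 to 3. The 3 genes that act on N-acetyllactosamine in the alpha-2,3 linkage (St3gal3, St3gal4 and St3gal6) held 33.2%, 27.1% and 26.2% of that sum in shCon and 12.9%, 13.2% and 13.6% in shCopa. St6gal1 held 26.9%, 33.8% and 34.6% in shCon and 47.6%, 46.0% and 46.6% in shCopa. The ratio of St6gal1 to St3gal4, both per length, was 0.938, 1.45 and 1.56 in shCon and 5.67, 5.64 and 5.56 in shCopa. With the median transcript length in place of the longest, St6gal1 was at 122 ± 9.11 CPM per kb and St3gal4 at 246 ± 51.1 in shCon, against 123 ± 0.498 and 55.9 ± 0.817 in shCopa. Under both lengths St6gal1 was above St3gal4 in every shCopa library, but which was higher in shCon depended on the length. The ratio of St3gal2 to St3gal1, both per length, was 3.47 to 4.36 in shCon and 3.49 to 4.02 in shCopa, ranges that overlap. With the median transcript length, the share of St6gal1 was 17.1% to 23.8% in shCon and 37.3% to 38.8% in shCopa, and that of the St3gal3, St3gal4 and St3gal6 group was 43.6% to 51.3% and 23.7% to 24.7%. These sums and ratios are descriptions of the members and carry no test.

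Likeness of pattern was measured over the 6 libraries for St3gal4, the member with the largest change, as the root mean square difference between log2 CPM profiles centred on their own mean. Among 9577 genes of at least 10 CPM, the closest were Gpx3, which encodes a secreted glutathione peroxidase (0.0308), Hmox2, a haem oxygenase (0.0357), and Arhgdia (0.0609). Gpx3 was at 1060, 753 and 731 CPM in shCon against 186, 193 and 190 CPM in shCopa. These genes share with St3gal4 both the fall and the raised value of shCon 1, which follows from their choice by likeness.

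Of the 10 other sialyltransferase genes, 3 had enough counts to be tested. St8sia2, a polysialyltransferase that builds polysialic acid on the adhesion molecule NCAM, was at 42.0, 72.7 and 69.0 CPM in shCon against 19.1, 24.3 and 18.5 CPM in shCopa. The groups did not overlap, and shCon 1 was the lowest control library, the reverse of its place for St3gal4. St8sia2 fell to 33.7% of control (log2 fold change -1.57 ± 0.22, adjusted p = 0.00169). St8sia1, GD3 synthase, had 6 to 21 counts in a library (log2 fold change -0.81 ± 0.37, adjusted p = 0.128), and St8sia4, the other polysialyltransferase, had 25 to 99 (-0.58 ± 0.33, adjusted p = 0.211). St8sia6 had 3 to 6 counts in shCon and 5 to 13 in shCopa. The remaining 6 genes had at most 7 counts in any library, at which depth no difference could be tested. None of the 3 tested rose by edgeR, where 18.2% of all genes rose and 18.4% fell. By DESeq2 0 of the list rose (15.9% of all genes), and by limma-voom 0 rose (18.7%). At an unadjusted p under 0.05, 0 were higher and 1 was lower, and the share of all genes at that cutoff is not given here. With 3 genes tested by edgeR, these counts are too small to be told apart from such shares.

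Of 6 genes for the synthesis, transport and hydroxylation of the donor CMP-sialic acid, 1 rose, 1 fell and 4 did not pass, with a median log2 fold change of 0.03. Those counts are near the background of 18.2% that rose and 18.4% that fell. Gne, the first enzyme of sialic acid synthesis, fell to 81.8% of control (-0.29 ± 0.09, adjusted p = 0.0452), and Cmah, which converts the N-acetyl to the N-glycolyl form of the donor, rose 1.73-fold (0.79 ± 0.26, adjusted p = 0.0489). Cmah was at 12.5, 26.6 and 24.9 CPM in shCon against 40.2, 37.1 and 33.7 CPM in shCopa. The call of Gne was lost in 9 of 16 alternatives, among them without shCon 2 or any 1 shCopa library, with DESeq2, with upper-quartile factors, and with no filter on low counts. That of Cmah was lost in 7 of 16, among them without shCon 3 or any 1 shCopa library and with no filter on low counts. Nanp, the phosphatase of the pathway, did not pass (0.41 ± 0.19, adjusted p = 0.132). Without shCon 1, 3 of these 6 rose and 1 fell, against 28.3% and 27% of all genes.

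Of 9 tested genes that remove or modify sialic acid, 3 fell, 1 rose and 5 did not pass (median -0.31), where 18.4% of all genes fell and 18.2% rose. Neu2, a cytosolic sialidase, fell to 34.9% of control from 4.45 ± 0.513 to 1.55 ± 0.388 CPM. Slc17a5, the exporter of free sialic acid from lysosomes, fell to 69.4% and Siae, which removes O-acetyl groups from sialic acid, to 72.1%. Casd1, which adds those O-acetyl groups, rose 1.26-fold (0.33 ± 0.09, adjusted p = 0.0267). The Siae call was lost without shCon 2, shCon 3, shCopa 1 or shCopa 3, and the Casd1 call in 8 of 16 alternatives, among them without shCon 2 or any 1 shCopa library, with no filter on low counts and with offsets for length and GC. In fits that each left out 1 library, 2 to 4 fell and 0 to 2 rose, against 11.6% to 27% and 11.7% to 28.3% of all genes. Without shCon 1 (28.3%), 2 rose.

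**Figure D4:**
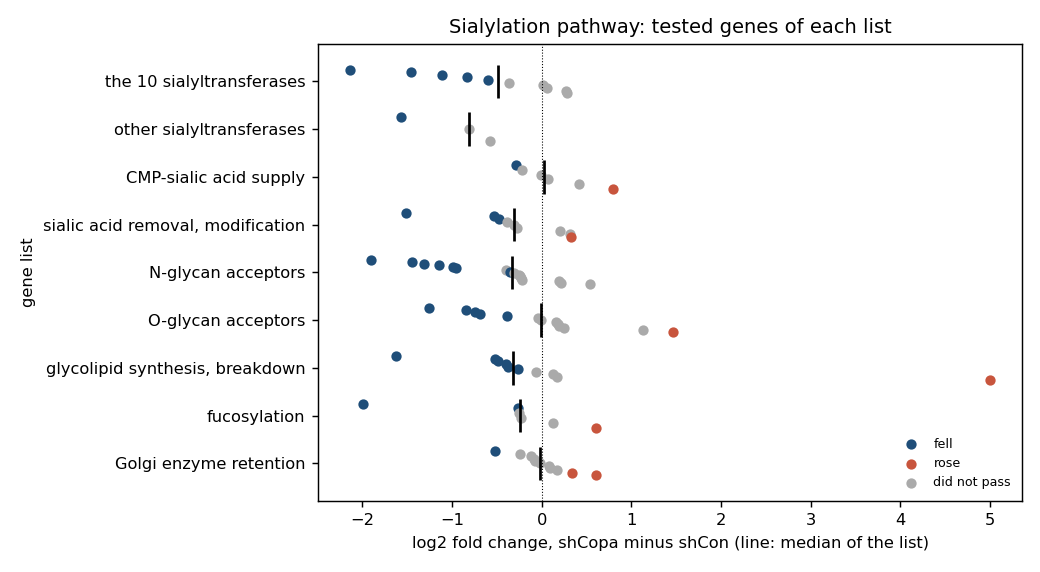
Log2 fold change (shCopa minus shCon) of each tested gene in 9 lists, with the list median as a black line; blue points fell, red points rose and grey points did not pass. The 10 sialyltransferases have the median -0.48, the donor supply list 0.03, and the far right point is A4galt, whose fitted value rests on 1 count in shCon.

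The enzymes that build the chains on which sialyltransferases act shifted unevenly. Among 16 N-glycan genes, 7 fell, 0 rose and 9 did not pass, with a median of -0.33, against 18.4% fallen and 18.2% risen over all genes. At an unadjusted p under 0.05, 1 was higher and 10 were lower, and the share of all genes at that cutoff is not given here. DESeq2 called 0 as risen and 7 as fallen, against 15.9% and 16.1% of all genes. With limma-voom, 0 rose and 7 fell, against 18.7% and 17.9%. B4galt3, one of the galactosyltransferases that lay down the galactose to which sialic acid is attached, fell to 45.1% of control from 34.8 ± 3.44 to 15.7 ± 0.953 CPM (adjusted p = 0.000357). Mgat3 and the mannosidase gene Man2a2 fell further, with log2 fold changes of -1.91 ± 0.12 and -1.32 ± 0.11. Without shCon 1, 12 fell and 2 rose, against 27% and 28.3% of all genes. The offsets for length and GC content gave 13 that fell and 3 that rose, against 24.6% and 24.8%.

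Among 13 tested genes for mucin-type O-glycans, 5 fell, 1 rose and 7 did not pass (median -0.01; all genes, 18.4% fell and 18.2% rose). Galnt genes start the chain. Galnt3 fell to 41.8%, Galnt10 to 55.7% and Galnt2 to 59.7% of control. B3gnt3, which extends core 1 chains, rose 2.75-fold from 1.10 ± 0.130 to 3.05 ± 0.173 CPM. C1galt1, the enzyme that makes the core 1 acceptor, did not pass (-0.05 ± 0.13, adjusted p = 0.815); it was named after its values were seen. The number that fell was 3 without shCopa 2 or shCopa 3, where 11.6% of all genes fell in each fit.

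Among 10 tested genes of ganglioside and glycolipid synthesis and breakdown, 6 fell, 1 rose and 3 did not pass (median -0.32), beside 18.4% and 18.2% of all genes. Psap, the precursor of the saposins that present glycolipids to lysosomal hydrolases, fell to 32.5% of control from 1311 ± 221 to 426 ± 14.4 CPM. Glb1, lysosomal beta-galactosidase, fell to 76.0%, a call lost without shCopa 1. A4galt, which makes the globoside branch from the same lactosylceramide that St3gal5 uses, was the gene that rose. It had 0, 0 and 1 counts in shCon and 12, 20 and 10 in shCopa, a ratio of 44.3 with a 95% counting interval from 7.54 to 1790. The number that fell was 2 without shCon 2, shCopa 2 or shCopa 3, against 15.4%, 11.6% and 11.6% of all genes. It was 1 without shCopa 1 (11.8%), and 2 rose without shCon 1 (28.3%). At a threshold of 0.01, 1 fell, beside 10.7% of all genes.

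Of 6 tested fucosylation genes, 2 fell and 1 rose (median -0.24), against 18.4% and 18.2% of all genes. Fut10, a member of the fucosyltransferase family, rose 1.52-fold (0.61 ± 0.12, adjusted p = 0.00656). Fut2, from 0.689 ± 0.239 to 0.174 ± 0.114 CPM, and Pofut1, to 83.3% of control, fell; the Fut2 call was lost without shCon 3, shCopa 1 or shCopa 2, and the Pofut1 call in 9 of 16 alternatives, among them without shCon 2, shCon 3 or any 1 shCopa library, with upper-quartile factors and with no filter on low counts. Without shCon 1, 3 of the 6 fell, against 27% of all genes. Of 11 genes that hold glycosylation enzymes in the Golgi, 2 rose, 1 fell and 8 did not pass (median -0.02), near the background of 18.2% and 18.4%. Golph3, the adaptor that links Golgi enzymes to COPI, did not pass (-0.02 ± 0.09, adjusted p = 0.912) and was named after its values were seen. Its relative Golph3l rose 1.26-fold (adjusted p = 0.0379), a call lost in 8 of 16 alternatives, among them without shCon 3 or any 1 shCopa library, with no filter on low counts and with offsets for length and GC. In the conserved oligomeric Golgi complex, a tether for vesicles that recycle these enzymes, Cog2 rose 1.52-fold and Cog7 fell to 69.6%, the latter lost without shCopa 1. Without shCon 1, 3 of the 11 rose and 3 fell, at the background of that fit (28.3% and 27%).

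**Figure D5:**
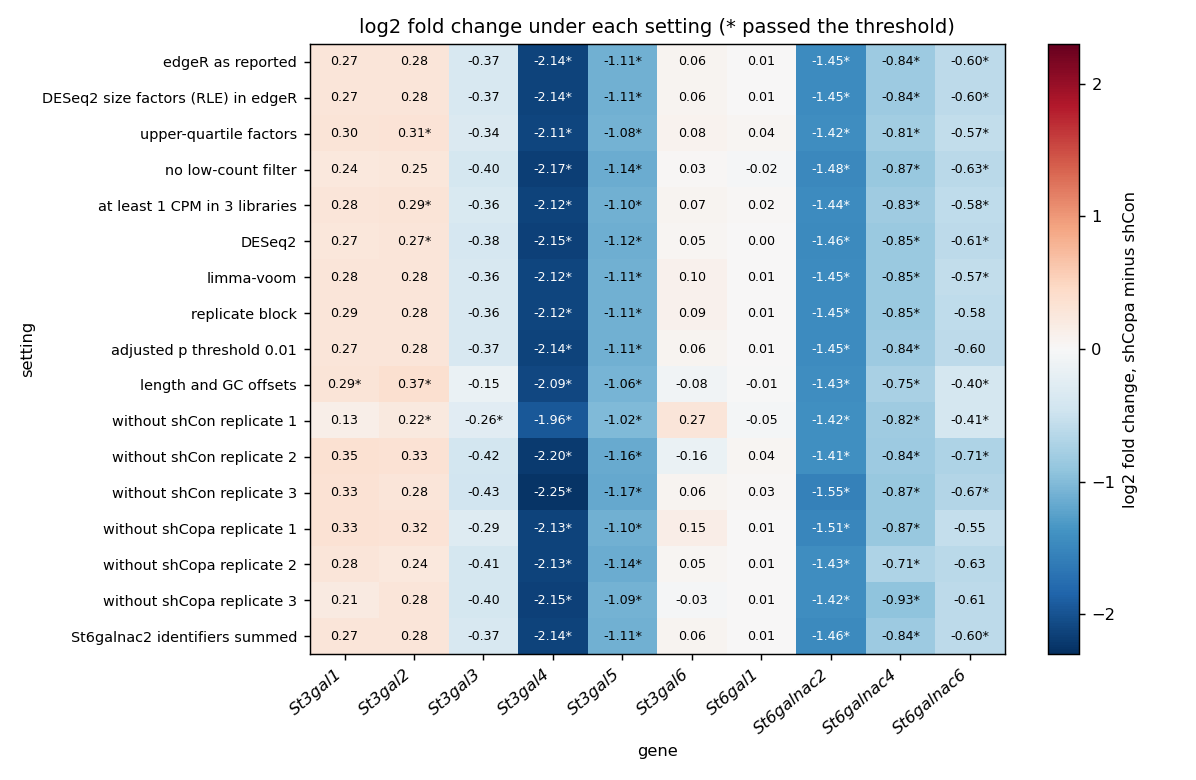
Log2 fold change (shCopa minus shCon) of each sialyltransferase under the reported edgeR fit and 16 alternatives; blue is lower and red higher in shCopa, and an asterisk marks a value past the threshold of that setting. St3gal4, St3gal5, St6galnac2 and St6galnac4 carry an asterisk in every row, while St6galnac6 and St3gal2 carry it in some.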

How the data were processed

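The deposited data are estimated counts for each Ensembl gene in 1 table; 10.6% to 11.9% of the values in a library were not whole, and all were rounded to whole numbers. The submitters' processing notes name the build GRCm39 and the tools HISAT2 2.0.5, Trimmomatic, featureCounts, HTSeq and DESeq2. Which program made the counts, with which annotation and strand setting, was not given in the sources used here. Groups and replicate numbers came from sample titles, and all 6 columns matched a title. Symbols came from a GENCODE M21 name table, which named 52081 of 55414 identifiers; for a symbol with several, the identifier with the higher mean was used.

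shCopa was compared with shCon in edgeR 4.0.16 (R 4.3.3): TMM factors, filterByExpr, robust quasi-likelihood fits and F tests over 14807 genes, with Benjamini-Hochberg adjustment and a threshold of 0.05. "Rose" and "fell" are used of genes past it. The SE is the fitted log2 fold change over the root of its F statistic. Intervals of 95% use the same SE. The fit was also run on simulated data with known changes in a small set of genes and no library set apart. That setting differs from these data, so the run does not vouch for the calls made here. Alternatives were other scaling factors and filters, DESeq2 1.42.0, limma-voom (limma 3.58.1), a replicate block, a threshold of 0.01, offsets for transcript length and GC content (lengths for 99.8% of tested genes), each library left out and, chosen after seeing the data, both St6galnac2 identifiers summed and all alternatives for the pathway lists.

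The members and gene lists were chosen with earlier results of these data known. Genes named were the 10 members and Copa, other sialyltransferases with at least 10 counts in a library, up to 3 genes per list by smallest adjusted p, members of a list that moved against it, and the 3 genes most like St3gal4; marker genes, and genes overlapping or next to a member, are given beside the results they touch. Promoter sequences are from RefSeq (GRCm38.p6).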

Additional observations from a re-analysis of the deposited data

How the results depend on the processing

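St3gal4, St3gal5, St6galnac2 and St6galnac4 kept their direction and passed under all 16 alternatives, with log2 fold changes of -2.25 to -1.96, -1.17 to -1.02, -1.55 to -1.41 and -0.93 to -0.71. The Copa log2 fold change was -1.50 to -1.35 and also passed in all 16. The number of members that fell was 4 to 6. It was 4 with a threshold of 0.01, where 10.7% of all genes fell. With 1 library left out it was 4 to 6, against 11.6% to 27% of all genes, the 6 being without shCon 1 (27%). The number that rose was 0 as reported. It was 1 with upper-quartile factors (19.5% of all genes rose), a filter of 1 CPM in 3 libraries (18.8%) or DESeq2 (15.9%). With the length and GC offsets (24.8%) it was 2 (St3gal1, adjusted p = 0.0235, and St3gal2). It was 0 to 1 with 1 library left out, the 1 being without shCon 1 (28.3%). The median log2 fold change of the members was -0.28 with the length and GC offsets and -0.57 to -0.34 with 1 library left out. The sign of St6gal1 turned with no low-count filter (-0.019), the length and GC offsets (-0.0071) and without shCon 1 (-0.054), with a range of -0.054 to 0.036 when 1 library was left out. That of St3gal6 turned with the offsets (-0.081) and without shCon 2 (-0.16) or shCopa 3 (-0.033), with a range of -0.16 to 0.27. Over all genes, 8439 differed without shCon 1, 3177 at a threshold of 0.01, 3565 without shCopa 2 and 3533 without shCopa 3. No alternative moved the median of all tested genes by over 0.1. Libraries with the same replicate number did not deviate together (r of -0.204, -0.083 and -0.131 across genes). Each group was centred on its own mean of 3 libraries and shCon 1 stood apart, so these values cannot exclude a pairing. The labels do not say what the numbers stand for. With the replicate block, 3903 genes differed against 5411 as reported, and 4 members fell and 0 rose, against 13.1% and 13.3% of all genes: St6galnac6 had a log2 fold change of -0.58 with an adjusted p of 0.0594. The member median was then -0.47, 2 of the 10 glycolipid genes fell, and Gne, Cmah, Casd1, Glb1, Pofut1 and Golph3l did not pass. The causes of these differences were not tested. Depth left 3 of the 10 other sialyltransferase genes with enough counts to be tested.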
